A study of Mus musculus with 11 samples.

Results

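The genes described here are those of the peroxisome in the renal cortex of aged mice, 38 genes of the 53801 listed, chosen by gene name. They comprised 25 enzymes, most of them working in the peroxisomal matrix, and 13 *Pex* genes, which build and maintain the organelle. All 38 passed the filter on low counts, which kept 18160 genes. RNA-Seq was performed on 1 library per mouse from 11 male mice aged 2 years, 5 floxed controls and 6 Cpt1aCKO mice. The Cpt1aCKO mice lacked the carnitine shuttle enzyme *Cpt1a* in kidney tubules through Pax8-rTTA;tetO-Cre, which acts in cells of the tubule lineage. Male mice of the study were fed doxycycline for 3 weeks from an age of 5 weeks to an age of 8 weeks to induce recombination. The labels give a mixed strain background for all mice, name the controls as floxed only, and do not say whether the controls carried Cre. The comparison asks whether the transcripts of the peroxisome differed between aged kidneys with and without tubular *Cpt1a*.

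Peroxisomes shorten very long chain and branched fatty acids by β-oxidation, begin the synthesis of ether lipids, and break down the hydrogen peroxide that their oxidases make. β-oxidation in this organelle does not need the carnitine shuttle for entry of the fatty acid, which is brought in by ABC transporters. Proximal tubule cells are rich in peroxisomes. Matrix enzymes are made in the cytosol and imported folded. The receptor PEX5 reads a short signal at the C-terminus (PTS1), and PEX7 reads a longer one near the N-terminus (PTS2). Several of the β-oxidation genes are known targets of the nuclear receptor PPARα in rodents.

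The targeting signals are shown first because they are what places a member inside the organelle, and because the rule that chose the genes did not use them. The last 8 codons and the stop codon of 6 enzymes whose levels are described in detail below, read 5′ to 3′ from the GENCODE M21 coding sequences (GRCm38), were as follows, with the last 3 sense codons in capitals.
Ehhadh: gcaggaccccatagcAGCAAACTGtga
Ech1: aaaagcatcaccttcTCCAAGCTCtga
Eci2: ttcgtctccagaaaaCCAAAGCTGtga
Eci3: ttcagaaaggcaaagGCTAAGCTAtga
Acox3: gccgacaggctaaagTCCCAGCTGtag
Acaa1b: gcggtctttgaatacCCTGGGAACtga
The search counted an end as PTS1-type where the codons were for serine, alanine or cysteine, then lysine, arginine or histidine, then leucine or methionine. Of the 25 enzymes, 14 had such an end, and in 5 of them it was the classical serine, lysine, leucine. *Ehhadh*, *Ech1* and *Eci3* were among the 14, and *Eci2* and *Acox3*, which differ from the pattern at 1 codon each, were not. No *Pex* gene of the 13 had one.

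A PTS2-type stretch near the start was found in 3 enzymes, *Acaa1a*, *Acaa1b* and *Phyh*, and in no *Pex* gene. Thus 17 of the 25 enzymes matched either pattern. An enzyme that matched neither may still carry a variant of a signal, so the search does not show which enzymes lack one. The 9 codons of the signal in both thiolases, which begin at codon 3, are shown because these are the closest paralogs among the members, with the base that differs in capitals.
Acaa1a: cggctgcaggtagtgctgggCcacctg
Acaa1b: cggctgcaggtagtgctgggTcacctg
The only substitution between them was C21T, counted from 1 at the first base shown. The coding sequences of both genes were 96.55% identical. Of the windows of 100 bases in the *Acaa1a* transcript used, 21.65% were also found in that of *Acaa1b*. For *Eci2* and *Eci3* these values were 89.55% and 1.34%. A read from the shared windows matches both paralogs, and how such reads were counted, or whether they were dropped, is not given. The levels of *Acaa1a* and *Acaa1b* are uncertain to that extent.

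*Cpt1a* was at 472 ± 54.4 CPM (counts scaled to library size; SD, n = 5) in the floxed controls and at 66.5 ± 21.1 CPM (SD, n = 6) in the Cpt1aCKO mice, with no overlap between groups. The log2 fold change was -2.83 (edgeR's quasi-likelihood test with Benjamini-Hochberg adjustment, adjusted p = 6.61e-05), so every library matched its label. Total counts ranged from 39628721 to 57459929 per library. One Cpt1aCKO mouse, S7602, had 158 CPM in olfactory receptor genes against 8.89 to 40.8 CPM in the others. Across all genes, 2 were higher and 1 lower in Cpt1aCKO mice at an adjusted p under 0.05, together 0.0165% of those tested. DESeq2 called 49 genes, or 0.27%. The summed CPM of 10 proximal tubule S1/S2 markers was 14981 to 17080 in the controls and 14018 to 18060 in the Cpt1aCKO mice, which fits renal cortex. Markers of S3 (8 genes) summed to 1679 to 2586 and 1677 to 2235 CPM, and those of distal tubule and collecting duct (10 genes) to 5888 to 7420 and 5639 to 7326 CPM. Macrophage markers (10 genes, none at 0) summed to 364 to 618 CPM in controls and 483 to 816 CPM in Cpt1aCKO mice, and these ranges overlapped. Of these genes, 9 of 10 had a positive log2 fold change, with a median of 0.37. The 2-sided exact permutation test of the sum gave p = 0.0476 (adjusted p = 0.223 over the 7 marker lists). Most of this sum was *Cd74*, at a mean of 337 CPM in controls and 466 CPM in Cpt1aCKO mice. Adipocyte and adrenal cortex markers summed to at most 2.28 and 2.75 CPM. The sum of 6 hepatocyte markers, 274 to 436 and 378 to 575 CPM, was mostly *Apob*. In bulk tissue, fewer cells of a type and less RNA per cell cannot be told apart.

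Of the 38 peroxisomal genes, none passed an adjusted p of 0.05 by edgeR, DESeq2 or limma voom, and the lowest adjusted p was 0.674 by edgeR and 0.295 by DESeq2, both for *Eci3*. At an unadjusted edgeR p under 0.05, 5 of the 25 enzymes were higher in Cpt1aCKO mice, where 3.35% of all genes tested were, and 2 were lower, where 2.57% of all genes were. Those higher were *Ehhadh*, *Acaa1b*, *Ech1*, *Eci2* and *Hsd17b4*, all enzymes of β-oxidation. Those lower were *Acox3* and *Eci3*, of the same pathway. Of the 13 *Pex* genes, none was past this threshold in either direction. The median log2 fold change was -0.0017 over the enzymes and -0.036 over the *Pex* genes, against 0.0060 over all genes tested, and 12 of 25 enzymes and 4 of 13 *Pex* genes had a positive value against 51.4% of all genes. The count of enzymes higher was 3 in place of 5 on leaving out either S2155 or a control among S2152, S7601 and S2578. Leaving out the control S7762 gave 8 enzymes higher, with *Acaa1a*, *Hacl1* and *Lonp2* added, and 4 lower, with *Agps* and *Far1* added. *Pex14* was past the threshold without S7601, *Pex26* without S2577 and *Pex11g* without S7602.

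**Figure D1:**
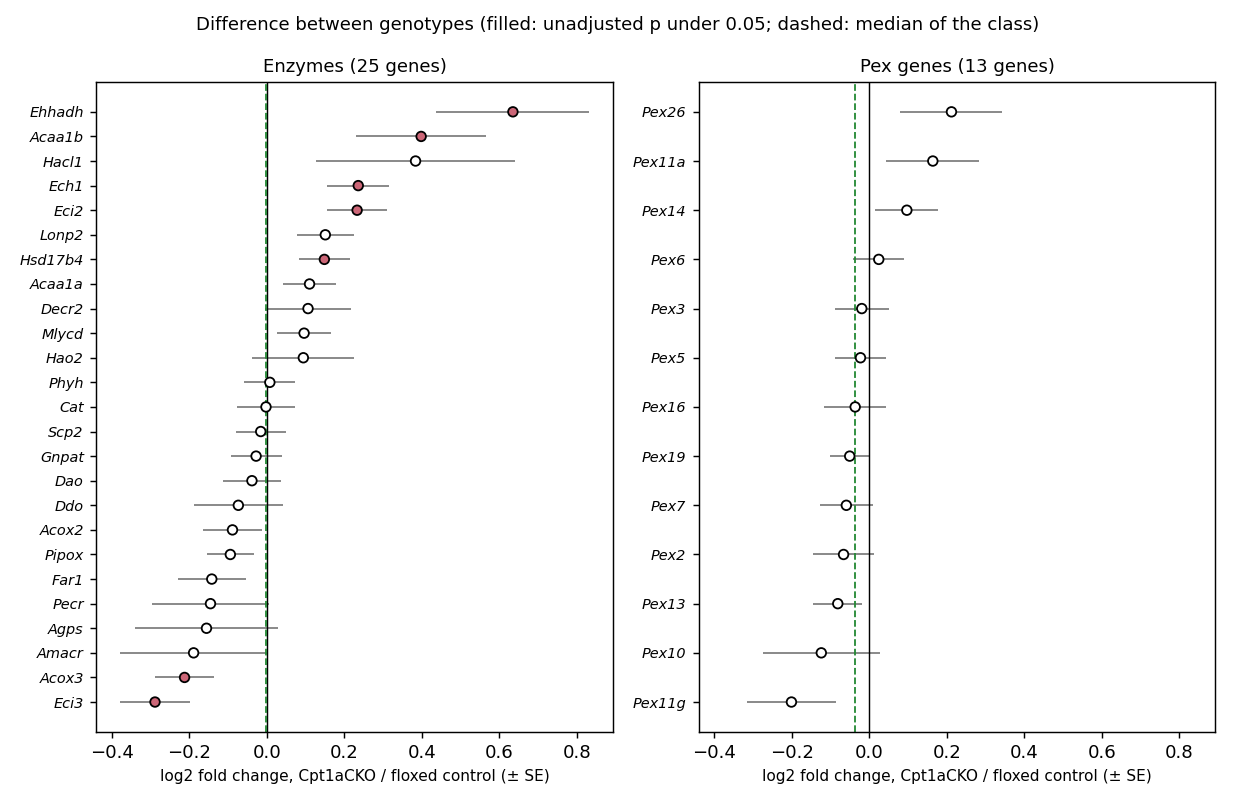
Each gene by its log2 fold change, Cpt1aCKO over floxed control (x axis, points with ± standard error from edgeR), for the 25 enzymes (left) and the 13 *Pex* genes (right). Filled points mark an unadjusted p under 0.05, all of them enzymes, and the dashed lines mark the class medians of -0.0017 and -0.036.

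The core enzymes of peroxisomal β-oxidation include the acyl-CoA oxidases *Acox2* and *Acox3*, the multifunctional enzymes *Ehhadh* and *Hsd17b4*, and the thiolases *Acaa1a*, *Acaa1b* and *Scp2*. *Ehhadh* encodes the L-bifunctional protein, which hydrates and then dehydrogenates the enoyl-CoA, and lies on chromosome 16, 21761287 to 21787807, minus strand (GRCm38). It was at 637, 686, 647, 846 and 723 CPM in the floxed controls, and from 773 to 1847 CPM, median 1056 CPM, in the Cpt1aCKO mice. Of the 6 Cpt1aCKO mice, 4 were above every control, and the highest, S2155, stood well above the next at 1082 CPM. It was higher by 0.64 on the log2 scale (standard error 0.198, edgeR p = 0.0071, adjusted p = 0.682), and the 2-sided exact permutation test gave p = 0.0173. Without S2155 the log2 fold change was 0.42 (edgeR adjusted p = 0.702), still past an unadjusted 0.05.

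*Hsd17b4*, the D-bifunctional protein that serves branched and very long chain substrates, was at 330, 345, 378, 396 and 357 CPM in the floxed controls. In the Cpt1aCKO mice it ranged from 380 to 439 CPM with a median of 391 CPM. The groups overlapped, with 2 of 6 Cpt1aCKO mice above every control. This amounted to 0.15 on the log2 scale (standard error 0.0663, edgeR p = 0.041, adjusted p = 0.830, 2-sided exact permutation p = 0.0368). The edgeR p was above 0.05 in 8 of the 21 alternative analyses, among them those that left out S2155, S2394 or a control among S2152, S7601 and S2578. The ratio of *Ehhadh* to *Hsd17b4* within a mouse was 1.71 to 2.13 in controls and 1.98 to 4.38 in Cpt1aCKO mice, with the highest value in S2155.

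*Acaa1b* encodes the thiolase that in the rodent liver is the inducible form of the pair, and cleaves the last intermediate of the cycle. It lies on chromosome 9, 119148023 to 119157093, minus strand, and *Acaa1a* lies on the same chromosome, 119339676 to 119350299, plus strand (GRCm38). *Acaa1b* was at 621, 579, 966, 836 and 677 CPM in the floxed controls. In the Cpt1aCKO mice it ranged from 752 to 1426 CPM with a median of 891 CPM. Only S2155 and S2577 were above every control, and control S7762 was above 4 of the 6 Cpt1aCKO mice. *Acaa1b* was higher by 0.40 on the log2 scale (standard error 0.168, edgeR p = 0.0337, adjusted p = 0.826, 2-sided exact permutation p = 0.0649). Without S2155 the difference was 0.26 and no longer past an unadjusted 0.05 (edgeR adjusted p = 0.873), as was also the case on leaving out S2577 or a control among S2152, S7601 and S2578.

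*Acaa1a* was at 292 ± 22.8 CPM (SD, n = 5) in the controls and 316 ± 19.7 CPM (SD, n = 6) in the Cpt1aCKO mice. Its log2 fold change of 0.11 did not pass the test (edgeR adjusted p = 0.863). The ratio of *Acaa1a* to *Acaa1b* was 0.335 to 0.467 in controls and 0.239 to 0.391 in Cpt1aCKO mice. These ranges overlapped. *Scp2*, whose longer product is the thiolase for branched chains, was at 1085 ± 46.5 CPM in controls and 1074 ± 79.3 CPM in Cpt1aCKO mice.

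*Acox3* encodes a branched chain acyl-CoA oxidase, 1 of the enzymes that open the cycle and make hydrogen peroxide. It was at 319, 323, 275, 298 and 338 CPM in the floxed controls. In the Cpt1aCKO mice it ranged from 237 to 307 CPM with a median of 267 CPM. Of the Cpt1aCKO mice, 4 were below every control. *Acox3* was lower, with a log2 fold change of -0.21 (standard error 0.0752, edgeR p = 0.0135, adjusted p = 0.755, 2-sided exact permutation p = 0.0216). *Acox2*, the oxidase of bile acid intermediates, was at 168 ± 8.58 and 158 ± 17.3 CPM, with a log2 fold change of -0.09 that did not pass (edgeR adjusted p = 0.902). The ratio of *Acox2* to *Acox3* was 0.460 to 0.630 in controls and 0.512 to 0.738 in Cpt1aCKO mice. *Amacr*, the racemase that readies branched chains for the cycle, spread widely in both groups, from 277 to 500 CPM and from 268 to 563 CPM (log2 fold change -0.19, edgeR adjusted p = 0.917). Without S2577, its highest value, the difference was -0.34 and past an unadjusted 0.05 (edgeR adjusted p = 0.515).

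**Figure D2:**
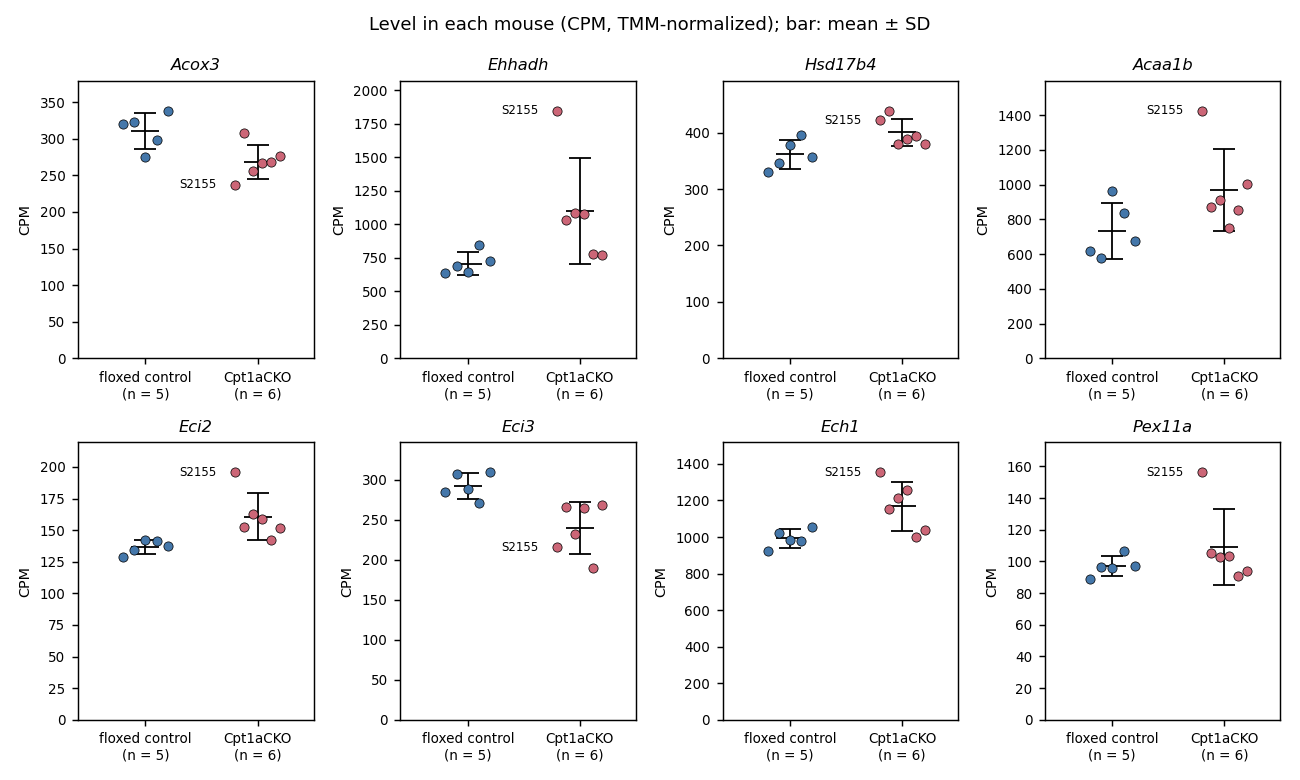
CPM in each mouse (y axis, from 0) for the 7 enzymes past an unadjusted p of 0.05 and for *Pex11a*, in 5 floxed controls and 6 Cpt1aCKO mice. Each point is a mouse and the bar is the mean ± SD, and the labelled mouse S2155 was the highest for *Ehhadh* (1847 CPM), *Acaa1b* (1426 CPM), *Eci2* (196 CPM), *Ech1* (1355 CPM) and *Pex11a* (156 CPM).

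The auxiliary enzymes *Eci2*, *Eci3*, *Ech1* and *Decr2* move or reduce the double bonds of unsaturated fatty acids so that the cycle can go on. *Eci2* and *Eci3* are paralogous enoyl-CoA isomerases and neighbours on chromosome 13, both on the minus strand, *Eci2* at 34977748 to 35027096 and *Eci3* at 34946614 to 34963810 (GRCm38). *Eci2* was at 129, 134, 142, 141 and 137 CPM in the floxed controls. In the Cpt1aCKO mice it ranged from 143 to 196 CPM with a median of 156 CPM, so that all 6 were above every control. The gap between groups was narrow, 142.2 against 142.6 CPM. On the log2 scale it was higher by 0.23 (standard error 0.0776, edgeR p = 0.0092, adjusted p = 0.730), and the 2-sided exact permutation test gave p = 0.0043, where the smallest p it can give is 0.0022.

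*Eci3* went the other way. It was at 285, 307, 288, 271 and 309 CPM in the floxed controls. In the Cpt1aCKO mice it ranged from 189 to 268 CPM with a median of 248 CPM, and all 6 were below every control. A log2 fold change of -0.29 was found (standard error 0.0904, edgeR p = 0.0065, adjusted p = 0.674, 2-sided exact permutation p = 0.0130). These were the only members whose groups did not overlap, 1 higher and 1 lower, where 0.341% of all genes lay above the controls without overlap and 0.27% lay below. Neither p was above 0.05 in any of the 21 alternative analyses.

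Within a mouse, the ratio of *Eci2* to *Eci3* was 0.451, 0.437, 0.493, 0.522 and 0.444 in the floxed controls and 0.567 to 0.908, median 0.651, in the Cpt1aCKO mice. The ratio ranges did not overlap, which the opposite differences of both genes already fix, and no test was made on the ratio. S2155 had the highest ratio. Both genes still separated the groups without it, but leaving out a mouse cannot make separate groups overlap, so this tests nothing. An antisense gene overlaps 3.41% of the exon bases of *Eci2* and a gene on the other strand overlaps 8.53% of those of *Eci3*, and how the counting used strand is not given in the sources used here.

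**Figure D3:**
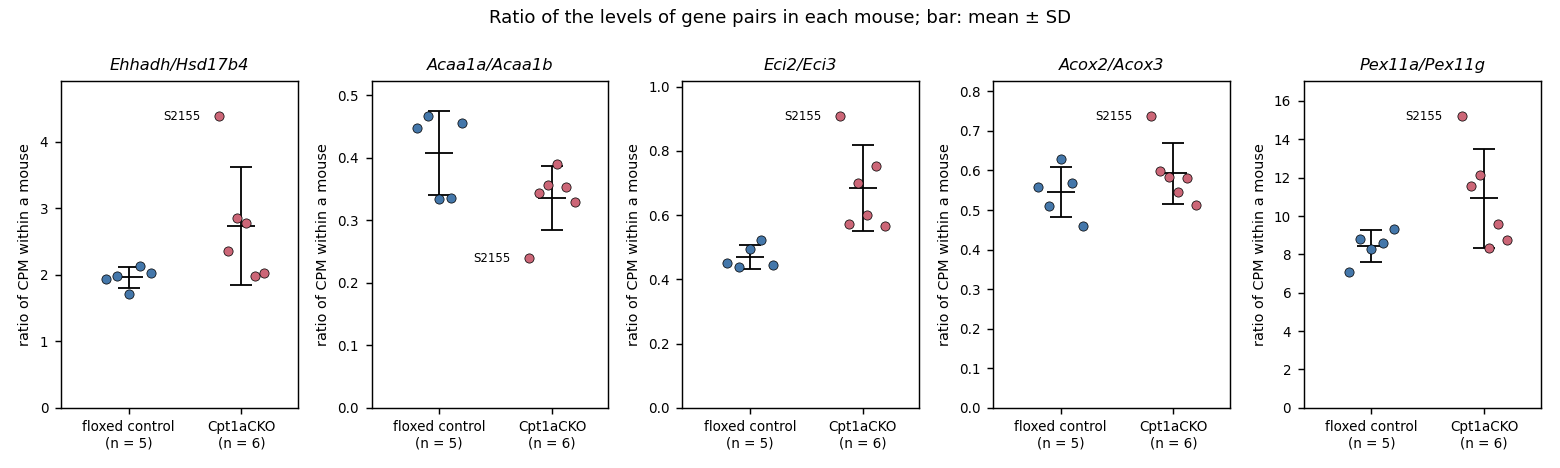
Ratio of CPM within each mouse (y axis, from 0) for 5 pairs of members, in 5 floxed controls and 6 Cpt1aCKO mice, with the mean ± SD. Only the *Eci2* to *Eci3* ratio did not overlap, at 0.437 to 0.522 in controls and 0.567 to 0.908 in Cpt1aCKO mice.

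*Ech1*, a dienoyl-CoA isomerase that works in peroxisomes and mitochondria, was at 922, 1024, 985, 977 and 1054 CPM in the floxed controls. In the Cpt1aCKO mice it ranged from 1001 to 1355 CPM with a median of 1184 CPM. Of these mice, 4 were above every control. It was higher by 0.24 on the log2 scale (standard error 0.0801, edgeR p = 0.0104, adjusted p = 0.730, 2-sided exact permutation p = 0.0260). *Decr2*, the peroxisomal dienoyl-CoA reductase, was at 128 ± 16.3 CPM in controls and 138 ± 22.6 CPM in Cpt1aCKO mice. Its log2 fold change of 0.11 did not pass (edgeR adjusted p = 0.921) and was 0.01 without S2155.

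Across these 7 enzymes, the mice numbered S2 (3 controls, 4 Cpt1aCKO) and S7 (2 and 2) in the labels gave the same direction for each gene. As these genes were picked on the same mice, that direction is largely fixed by the choice and is given as a description. The log2 difference of *Ehhadh* was 0.62 in the S2 mice and 0.46 in the S7 mice, and that of *Acaa1b* was 0.55 and 0.10. That of *Eci2* was 0.28 and 0.13, and that of *Eci3* -0.24 and -0.41. Of the 18 other enzymes, 7 had the direction of all mice in both series, as did 9 of the 13 *Pex* genes. That direction comes from the same mice, so agreement is partly fixed here too. The share over all genes was not computed, so these counts do not set the classes apart. The sources used here do not say what the numbers S2 and S7 stand for. Of the 10 macrophage markers, 3 were higher in the Cpt1aCKO mice at an unadjusted edgeR p under 0.05 (3.35% of all genes), and of the 10 distal tubule and collecting duct markers, 3 were lower (2.57%). At the same threshold, 1 of 10 S1/S2 markers was higher and 0 lower, and 0 of 8 S3 markers were higher and 1 lower. The median log2 fold change was 0.12 over the S1/S2 markers and -0.21 over the S3 markers, against 0.0060 over all genes tested. The part of these marker lists in the differences of the peroxisomal genes was not tested.

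The other enzymes of acyl-CoA handling did not pass the test. *Pecr*, a trans-2-enoyl-CoA reductase, was at 796 ± 191 CPM in controls and 720 ± 123 CPM in Cpt1aCKO mice (log2 fold change -0.14, edgeR adjusted p = 0.921). *Mlycd*, which removes malonyl-CoA, was at 167 ± 10.03 and 179 ± 14.4 CPM (0.10, edgeR adjusted p = 0.886). In α-oxidation, *Phyh*, which hydroxylates phytanoyl-CoA, was at 709 ± 49.9 and 713 ± 43.4 CPM, with a log2 fold change of 0.01. *Hacl1*, the lyase of the same pathway, was at 8.26 ± 2.59 and 10.8 ± 4.40 CPM, the lowest level of any member in the controls. In the Cpt1aCKO mice *Pex11g* was lower, at 10.1 CPM. The highest *Hacl1* level, 19.0 CPM, was in S2155, and the log2 fold change was 0.38 (edgeR adjusted p = 0.872). A gene on the same strand covers 31.1% of the *Hacl1* exon bases, and a second row with that name held 0 reads in every mouse and was not tested.

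*Cat*, the catalase that breaks down hydrogen peroxide, was at 1163 ± 92.2 CPM in the floxed controls, the highest level of any member. In the Cpt1aCKO mice it was at 1162 ± 102 CPM, where *Ech1* was at 1169 ± 134 CPM. The log2 fold change of *Cat* was -0.0017 with a standard error of 0.0755. The oxidases that make peroxide from amino acids or hydroxy acids did not pass either. *Dao*, the D-amino acid oxidase of the proximal tubule, was at 196 ± 7.48 and 191 ± 19.1 CPM. *Ddo*, the D-aspartate oxidase, was at 60.6 ± 10.6 and 57.6 ± 6.87 CPM, and *Pipox*, which oxidizes pipecolate and sarcosine, at 386 ± 27.7 and 361 ± 12.7 CPM. The hydroxy acid oxidase *Hao2* was at 837 ± 80.1 and 893 ± 175 CPM. In the Cpt1aCKO mouse S2577 it was at 554 CPM, below every other mouse, and 4 of the other Cpt1aCKO mice were above every control. Without S2577 its log2 fold change was 0.20 and past an unadjusted 0.05 (edgeR adjusted p = 0.460), against 0.09 with it (edgeR adjusted p = 0.951).

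All 3 members of ether lipid synthesis had negative values and none passed the test. *Gnpat*, which adds the first acyl chain, was at 124 ± 8.86 and 122 ± 7.13 CPM (log2 fold change -0.03). *Agps*, which exchanges it for an alkyl chain, was at 141 ± 36.0 and 127 ± 25.9 CPM (-0.16), and *Far1*, which supplies the fatty alcohol, at 226 ± 28.3 and 205 ± 16.8 CPM (-0.14, edgeR adjusted p = 0.863). The control S7762 had the lowest *Agps* of all 11 mice, 79.3 CPM. Without it the log2 fold changes of *Agps* and *Far1* were -0.30 (edgeR adjusted p = 0.963) and -0.21 (edgeR adjusted p = 0.844), both past an unadjusted 0.05. *Lonp2*, the protease of the matrix, was at 181 ± 9.97 and 201 ± 18.7 CPM (0.15, edgeR adjusted p = 0.845), and passed an unadjusted 0.05 in 6 of the 21 alternative analyses.

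The *Pex* genes, by contrast with the enzymes, spanned a narrow range of log2 fold changes, from -0.20 for *Pex11g* to 0.21 for *Pex26*. Their lowest adjusted p was 0.863 by edgeR. The difference in spread between both classes was not tested. The import receptors *Pex5* and *Pex7* were at 130 ± 5.39 and 116 ± 3.76 CPM in the floxed controls and at 128 ± 10.2 and 111 ± 9.94 CPM in the Cpt1aCKO mice. The log2 fold changes were -0.02 (standard error 0.0658) and -0.06 (standard error 0.0681). Docking at the membrane is the task of *Pex13* and *Pex14*. *Pex13* was at 55.7 ± 4.43 and 52.7 ± 1.71 CPM (log2 fold change -0.08), and *Pex14* at 38.1 ± 3.92 and 40.8 ± 3.26 CPM (0.10). The *Pex14* value of control S7601, 45.1 CPM, stood above the other controls, which reached 36.8 CPM. Without S7601 the log2 fold change was 0.16 and past an unadjusted 0.05 (edgeR adjusted p = 0.878). Opposite-strand genes cover 28.3% of the exon bases of *Pex14* and 41.1% of those of *Pex11g*.

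*Pex2* and *Pex10*, RING ligases that ubiquitinate the receptor for recycling, were at 84.8 ± 7.12 and 18.7 ± 2.31 CPM in controls and at 81.0 ± 7.57 and 17.2 ± 3.69 CPM in Cpt1aCKO mice. *Pex6*, an ATPase that pulls the receptor out, was at 115 ± 7.93 and 117 ± 7.44 CPM. Its membrane anchor *Pex26* was at 21.7 ± 2.84 and 25.1 ± 4.67 CPM (log2 fold change 0.21, edgeR adjusted p = 0.863). Without S2577 its log2 fold change was 0.29 and past an unadjusted 0.05 (edgeR adjusted p = 0.471). *Pex3*, *Pex16* and *Pex19* insert the membrane proteins. *Pex3* was at 35.6 ± 1.68 and 35.1 ± 2.62 CPM and *Pex16* at 61.6 ± 4.31 and 60.03 ± 6.32 CPM. *Pex19*, the most abundant *Pex* gene in CPM, had the tightest levels, 149 ± 3.50 and 143 ± 3.67 CPM. Its log2 fold change of -0.05 did not pass edgeR's test (p = 0.341), and the 2-sided exact permutation test gave an unadjusted p of 0.0476.

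The PEX11 proteins elongate the organelle before division, and *Pex11a* is the form known to be induced by PPARα ligands in rodent liver. *Pex11a* was at 89.0, 96.8, 95.8, 107 and 97.3 CPM in the floxed controls and from 90.7 to 156 CPM, median 103 CPM, in the Cpt1aCKO mice. Only S2155 was above every control. This gave a log2 fold change of 0.16 (edgeR adjusted p = 0.888) and 0.03 without S2155. *Pex11g* was at 11.6 ± 0.903 and 10.1 ± 1.41 CPM (-0.20, edgeR adjusted p = 0.863), and without S7602 it was past an unadjusted 0.05 (edgeR adjusted p = 0.694). The ratio of *Pex11a* to *Pex11g* was 7.08 to 9.31 in controls and 8.32 to 15.2 in Cpt1aCKO mice. These ranges overlapped.

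The spread among the Cpt1aCKO mice was uneven over the members. S2155 was the highest of all 11 mice in 10 of the 25 enzymes and 3 of the 13 *Pex* genes, where it was the highest in 11.9% of all genes tested. It was also the lowest in 4 enzymes and 3 *Pex* genes, and in 10.5% of all genes tested. Against the mean of the other Cpt1aCKO mice, its level was 1.95-fold for *Ehhadh*, 1.62-fold for *Acaa1b*, 1.57-fold for *Pex11a*, 1.40-fold for *Decr2* and 2.08-fold for *Hacl1*, and 0.677-fold for *Amacr*. The summed CPM of the 25 enzymes was 12711 in S2155 and 10151 to 11435 in the other Cpt1aCKO mice, against 10431 to 10993 in the controls. The sum of the 13 *Pex* genes was 898 to 955 CPM in Cpt1aCKO mice and 907 to 953 CPM in controls. S2155 had *Cpt1a* at 84.8 CPM, within the range of its group (38.4 to 97.3 CPM). Its summed proximal tubule S1/S2 markers, 14018 CPM, were the lowest of the 11 mice, and its total of 43027049 counts was within the range of the others. Their part in its peroxisomal levels was not tested.

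**Figure D4:**
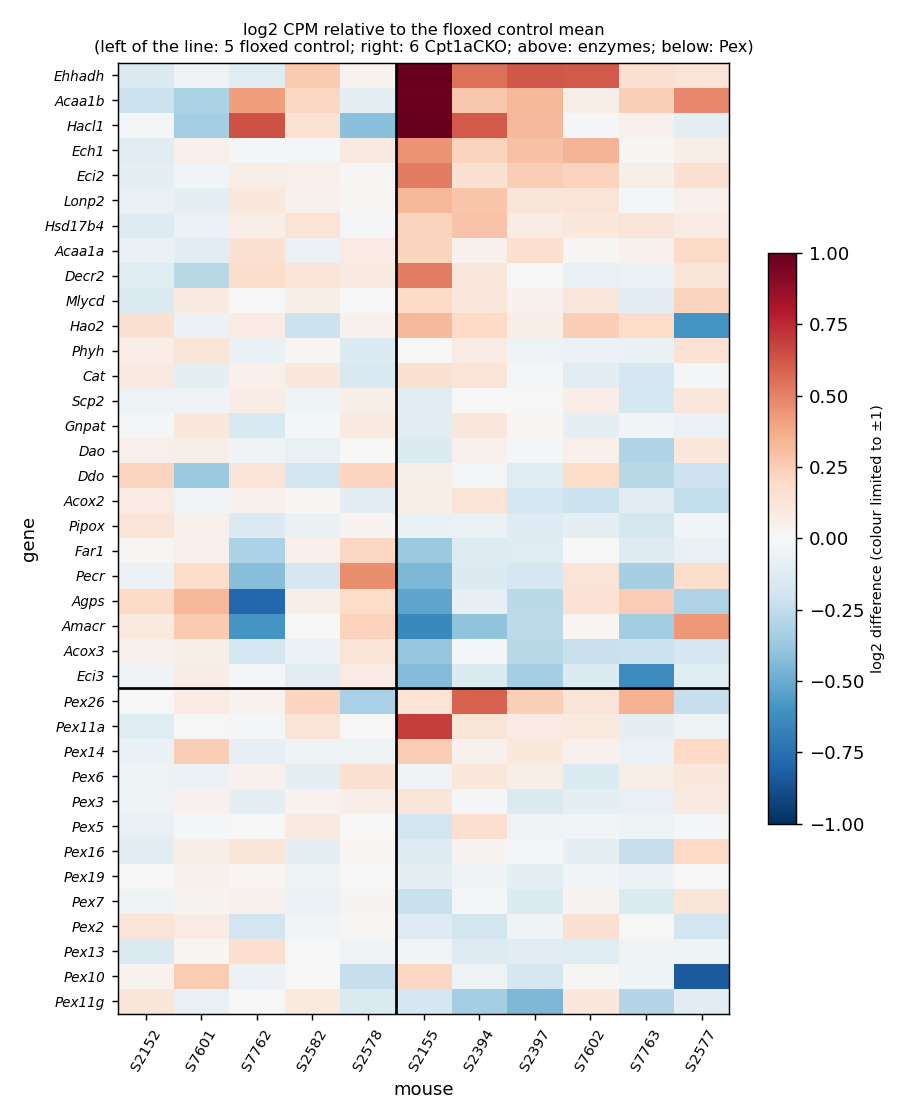
log2 CPM of each of the 38 members (rows, enzymes above the line and *Pex* genes below, each ordered by log2 fold change) in each mouse (columns) minus the mean of the floxed controls, with colours limited to ±1. The column of S2155 holds the deepest colours, for *Ehhadh*, *Acaa1b* and *Hacl1*, and the *Pex* rows are pale apart from a few cells such as *Pex11a* in S2155.

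Per length, the enzymes were the more abundant class. Length was that of all annotated exons of a gene merged, which can exceed the transcript that was expressed, so the order depends on the annotation. In floxed controls the highest level was that of *Pecr*, 525 CPM per kb of exon, followed by *Cat* (445), *Ech1* (435), *Hao2* (408), *Acaa1b* (375) and *Phyh* (374), all in CPM per kb. Neighbours in this order such as *Acaa1b* and *Phyh* were closer than the variation of *Acaa1b* between control mice, 22.0% of its mean. *Pex19*, with 38.9 CPM per kb, was the highest *Pex* gene, and 17 enzymes were above it. *Hacl1*, with 1.67 CPM per kb, was the lowest member of both classes. A gene on the same strand covers 31.1% of its exon bases, and how reads there were counted is not given, so this level is uncertain.

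Of 45 other peroxisomal genes, membrane transporters, acyl-CoA enzymes and further *Pex* genes among them, 41 were tested and *Abcd2*, *Agxt*, *Hao1* and *Uox* were not, with at most 25 reads in any library. Past an unadjusted edgeR p of 0.05, 4 of the 41 were higher (3.35% of all genes) and 2 lower (2.57%), with a median log2 fold change of 0.08. Of these, only *Acsl1* passed DESeq2's adjusted threshold (adjusted p = 0.0197), and by edgeR its adjusted p was 0.520. *Acsl1*, an acyl-CoA synthetase that is not confined to peroxisomes, had a log2 fold change of 0.75. *Abcd3*, a transporter of acyl-CoA into the organelle, had 0.25 (edgeR adjusted p = 0.795). *Crat*, a carnitine acetyltransferase, had 0.18 (edgeR adjusted p = 0.839). The groups overlapped for both genes. The thioesterase *Acot5* was barely detected, at 0.252 and 0.509 CPM. Lower were *Pmvk*, a kinase of the mevalonate pathway, with a log2 fold change of -0.30 (edgeR adjusted p = 0.755), and *Mpv17l*, a membrane protein, with -0.25 (edgeR adjusted p = 0.823).

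Since PPARα binds with RXR to direct repeats spaced by 1 base, the promoters were searched on both strands for AGGTCANAGGTCA and for the looser AGGNCANAGGNCA, which contains the first. The windows were of 300 bases, mostly upstream of each RefSeq start (GRCm38.p6), and 34 of the 38 members had 41 of them. No member window held either motif. Of all 32851 windows, 0.0396% held the first and 0.381% the second. With shares this low, no match among 41 windows is the usual outcome, so the search cannot tell whether the members have such sites. Sites outside the windows were not searched.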

How the data were processed

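Raw read counts per gene were deposited by the authors, made with STAR 2.7.3a and HTSeq from stranded mRNA libraries. DESeq2 and Cufflinks 2.2.1 are also named in the submitters' processing notes. The sources used here do not give the genome build, annotation or strand setting. The deposited columns of normalized signal values, log2 fold changes, p-values and adjusted p-values are the authors' own and were not used. Gene IDs were matched to GENCODE M21 (GRCm38) for exon lengths, positions and coding sequences, and member names to RefSeq promoters.

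Mice were grouped by the genotype label and taken as independent. The study speaks of littermate controls, but the labels do not give litters. Counts were analyzed in R 4.3.3 with edgeR 4.0.16 (filterByExpr, TMM, robust quasi-likelihood fit on genotype). The p-values were adjusted by Benjamini-Hochberg over all 18160 genes. CPM used TMM library sizes, and log2 CPM a prior count of 2. Exact permutation tests of mean log2 CPM, 2-sided, used all 462 assignments of the mice, so the smallest p is 0.0022. Alternatives were DESeq2 1.42.0, limma 3.58.1 voom with sample weights, a covariate for the number series (S2 or S7), other filters and normalizations, and leaving out each mouse. Code was tested on simulated counts.

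All 38 members are accounted for. Those with an unadjusted edgeR p under 0.05 or with groups that do not overlap are described by mouse, 5 pairs are given as ratios, and of the other peroxisomal genes those under 0.05 are named. 1 further gene is not reported here. *Pex11a* is also given by mouse, chosen after its values were seen. The members, lists and motifs were chosen with earlier results of these data known.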

Additional observations from a re-analysis of the deposited data

Results flagged for a closer look

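In 7 of the 76 groups examined (38 genes in each of the 2 genotypes), 1 mouse stood apart from its group by Dixon's criterion. Chance gives this in about 5% of groups. The Cpt1aCKO mouse S2155 accounted for 5 of them. It was high for *Ehhadh* (1847 CPM, next 1082 CPM), *Decr2* (181 CPM, next 138 CPM), *Eci2* (196 CPM, next 162 CPM) and *Pex11a* (156 CPM, next 106 CPM), and low for *Far1* (174 CPM, next 206 CPM). The Cpt1aCKO mouse S2577 was low for *Hao2* (554 CPM, next 873 CPM). The floxed control S7601 was high for *Pex14* (45.1 CPM, next 36.8 CPM).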

How the results depend on the processing

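No member passed an adjusted p of 0.05 under any of the 21 alternatives, of which the last, leaving out S2155 and S7602 together, was chosen after seeing the data. The 7 enzymes past an unadjusted p of 0.05 kept their direction in all 147 combinations and this threshold in 131. *Ehhadh*, *Eci2* and *Eci3* kept it in all, with log2 fold changes of 0.37 to 0.72, 0.16 to 0.26 and -0.32 to -0.23. *Hsd17b4* lost it in 8, *Acaa1b* in 6, and *Acox3* and *Ech1* in 1 each, without S2155 and S7602 together. Enzymes higher numbered 5. They numbered 6 with voom, with library totals alone and with a minimum mean of 5 CPM. A covariate for the number series gave 4. They numbered 3 with every gene that had a read, 3 without S2155 and S7602, and 3 to 8 without single mice. Enzymes lower numbered 2, but 1 without S2155 and S7602 and 2 to 4 without single mice. *Pex* genes past the threshold numbered 0, but 1 lower without S2155 and S7602 (*Pex11g*), and 0 to 1 in each direction without single mice. Over all genes, 2 were higher and 1 lower. DESeq2 called 31 and 18, voom and a minimum mean of 5 CPM each called 1 higher, and without single mice 2 were higher and 1 to 2 lower, with 2 without S2582. A fit that was not robust and a fit of every gene with a read each called 3 higher. Why the calls moved was not tested. The class medians moved by less than the spread between mice. No paired analysis was possible because the labels give no replicate numbers shared between genotypes. The study calls its controls littermates, but which mice shared a litter is not stated, and a pairing by litter was not tested. The p-values measure the spread between single libraries.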
